A study of Mus musculus with 2 samples.

Results

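Barrier capillary endothelial cells of the mouse retina were taken here as non-cycling, non-tip endothelial cells with high summed Mfsd2a, Spock2 and Slco1c1. A barcode was kept with at least 1000 unique molecular identifiers (UMIs, each standing for 1 captured transcript), at least 500 genes and a mitochondrial share of 1 to 10%. It was endothelial with at least 2000 CPM (UMI counts scaled to a common total per cell) of summed Pecam1, Cdh5, Cldn5, Kdr, Flt1, Egfl7, Esam and Ramp2, and under 1000 CPM of summed Rgs5, Kcnj8, Pdgfrb and Higd1b, which mark mural cells. Cells with 200 CPM or more of Mki67 and Top2a (cycling) or 300 CPM or more of Esm1, Angpt2 and Kcne3 (tip) were set aside, and the remaining cells with at least 800 CPM of summed Mfsd2a, Spock2 and Slco1c1 were the barrier capillary cells. They numbered 252 of 1536 endothelial cells and of 10347 retained barcodes.

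The cells came from retinas of mouse pups at postnatal day 6, enriched with beads against the endothelial surface protein CD31 and sequenced as 10x Genomics 3' libraries. There was 1 library per genotype. The control carried floxed Alk1 alleles alone (Alk1f/f). The knockout, called Alk1 ECKO here, carried the same floxed alleles and Cdh5 CreERT2, a tamoxifen-inducible recombinase whose Cdh5 promoter is active in endothelium. The sources used here do not give how many animals entered a library, whether they were littermates, or when tamoxifen was given. With 1 library per genotype no difference below has a replicate check and no test was made; every interval is at the 95% level and reflects counting error alone, and cells of 1 library are not replicates.

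The capillaries of the retina, like those of the brain, carry a blood barrier built from tight junctions, low vesicle traffic and selective transporters. Norrin and Wnt signals from glia maintain this state through beta-catenin in the endothelial cell. ALK1, encoded by Acvrl1, is the endothelial receptor for BMP9 and BMP10 that signals through SMAD1 and SMAD5, and its loss in mice gives arteriovenous malformations, as do human mutations in hereditary hemorrhagic telangiectasia. Mfsd2a carries lysophospholipids with omega-3 fatty acids and restrains transcytosis, Slco1c1 carries thyroxine, and Spock2 encodes a secreted proteoglycan.

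Median depth was close in the libraries, but more Alk1 ECKO than control barrier capillary cells were shallow, with 31 of 124 and 8 of 128 cells under 5000 UMIs. The 128 control cells held 3567876 UMIs (median 16427.5 per cell, 1530 to 131989) and the 124 Alk1 ECKO cells held 2689529 (median 14770, 1028 to 93100). The median mitochondrial share was 4.60% in control and 2.78% in Alk1 ECKO cells, and ribosomal protein genes took 20.3% and 22.1% of UMIs. The libraries shared 20 barcodes, none of them in barrier capillary cells. Levels below are normalised CPM, computed from the pooled UMIs of a class and divided by a size factor of that class and library.

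Both marker genes that the selection did not use were higher in barrier capillary cells than in endothelial cells below the threshold. Lrp8, a receptor for reelin and apolipoprotein E, was at 339 CPM in control barrier capillary cells and 113 CPM in control endothelial cells below the barrier threshold, and at 317 against 140 CPM in Alk1 ECKO. Slc7a1, the cationic amino acid transporter, was at 952 against 518 CPM in control and 643 against 359 CPM in Alk1 ECKO. Of the other endothelial genes, Ptprb, a vascular phosphatase, was at 633 CPM in control against 581 CPM in Alk1 ECKO, and Erg, an endothelial transcription factor, at 185 and 151 CPM. Mural transcripts were at the lowest level of the other cell types' lists, with 16 genes summing to 8.26 CPM in control against 7.60 CPM in Alk1 ECKO. Pdgfrb, Kcnj8 and Cspg4 were at 0 UMIs in both, where 3 counts would give 0.774 CPM in control against 1.09 CPM in Alk1 ECKO. Pdgfrb and Kcnj8, with Rgs5 and Higd1b, set the mural limit of the selection. The low level of these genes was therefore set in part by the selection. The 15 rod genes summed to 270 CPM in control against 49.95 CPM in Alk1 ECKO, and the 16 microglial or macrophage genes to 52.9 and 70.2 CPM. The Müller glia or progenitor list was highest, at 1442 and 1131 CPM, and astrocyte genes summed to 228 and 208 CPM. Retinal neuron genes summed to 140 and 44.5 CPM and erythroid genes to 92.1 and 158 CPM. Over 2000 CPM of rod, Müller, neuron, microglial and erythroid transcripts together were in 50 of 128 control and 27 of 124 Alk1 ECKO members. The part of these transcripts in the differences below was not tested, apart from the values without the members richest in them.

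Barrier capillary cells took a smaller share of the endothelial cells in the Alk1 ECKO library. They were 128 of 331 control endothelial cells, 38.7% (Clopper-Pearson 33.4 to 44.2). In Alk1 ECKO they were 124 of 1205, or 10.3% (8.63 to 12.1). Tip cells were 3.32% of control (11 cells) and 21.4% of Alk1 ECKO endothelial cells (258 cells), whereas cycling cells were 28.7% and 30.2%. Among non-cycling, non-tip endothelial cells alone, the barrier capillary share was 56.9% of 225 in control (50.1 to 63.5) and 21.3% of 583 in Alk1 ECKO (18.01 to 24.8). The bead enrichment left 4.37% endothelial cells in control and 43.6% in Alk1 ECKO, so the libraries also differed in which cells they held. The share was lower in Alk1 ECKO with a barrier threshold of 600 CPM (45.3% against 15.4%) and of 1200 CPM (31.1% against 4.56%), and when members with over 2000 CPM of other cell types' transcripts were left out (27.8% against 8.23%). Fewer such cells and less of the 3 selecting transcripts per cell cannot be told apart.

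**Figure D1:**
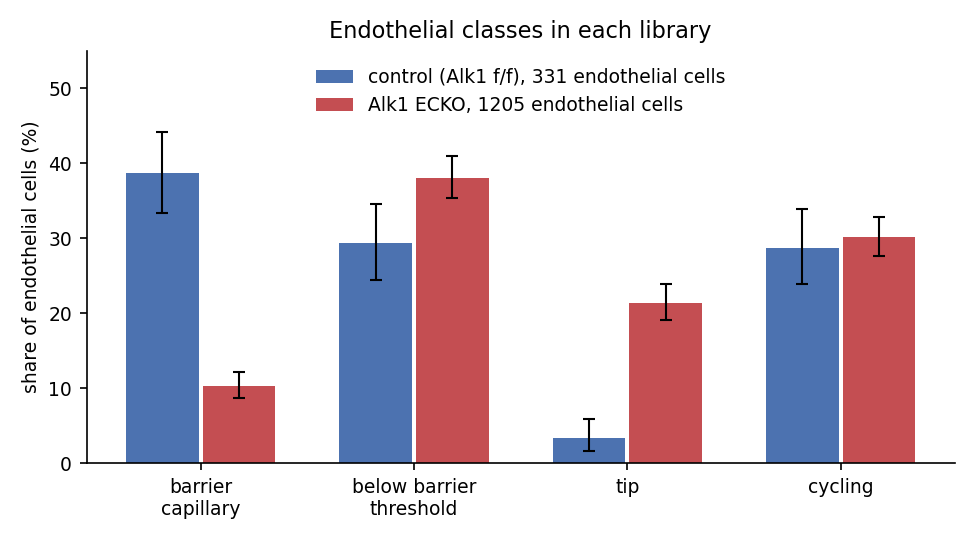
Share of endothelial cells (%) in each of 4 classes, control in blue and Alk1 ECKO in red, with exact binomial 95% intervals for counting error as error bars. Barrier capillary cells were 38.7% of 331 control and 10.3% of 1205 Alk1 ECKO endothelial cells.

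The 3 selecting genes also differed within the selected cells. Since they chose the members, their values are a description. Their sum per cell had a median of 1737 CPM in control (805 to 5563) and of 1127 CPM in Alk1 ECKO (804 to 3760), so the ranges overlapped while most control cells lay higher. Just outside the threshold, between 600 and 800 CPM, lay 22 control and 61 Alk1 ECKO cells; just inside, between 800 and 1000 CPM, lay 12 and 41. From 1600 CPM there were 75 control and 25 Alk1 ECKO cells. All 3 genes had a UMI in 104 of 128 control cells (81.3%) and in 59 of 124 Alk1 ECKO cells (47.6%). The genes did not share 1 ratio. Spock2 was at 1277 CPM in control against 787 CPM in Alk1 ECKO, Slco1c1 at 194 and 70.6 CPM, and Mfsd2a at 388 and 327 CPM.

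**Figure D2:**
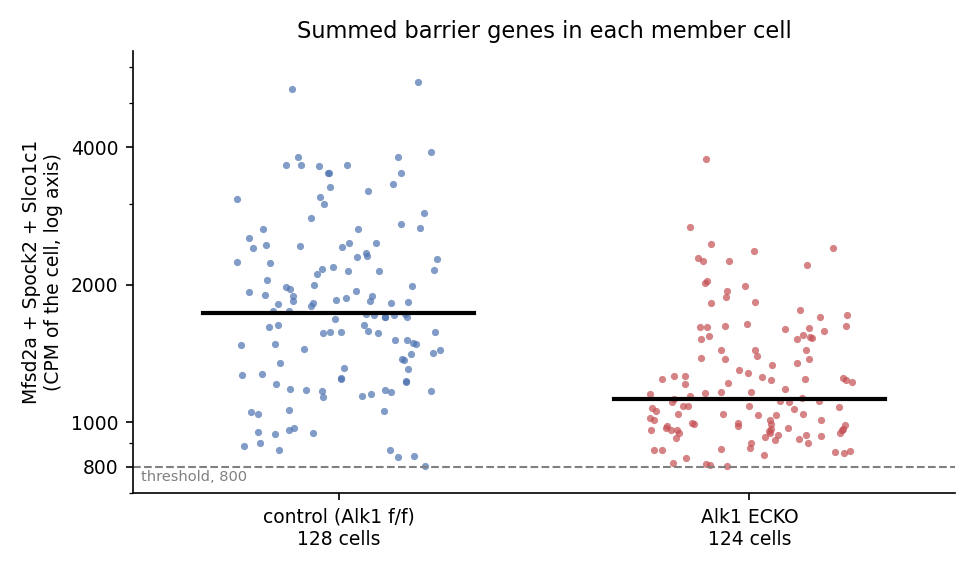
Summed Mfsd2a, Spock2 and Slco1c1 (CPM of the cell's UMIs, log axis) in each barrier capillary cell, with the median as a black line and the selection threshold of 800 CPM dashed. The median was 1737 CPM over 128 control cells and 1127 CPM over 124 Alk1 ECKO cells.

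After each cell was thinned to 5000 UMIs, which left 120 control and 93 Alk1 ECKO barrier capillary cells, Slco1c1 was detected in 57.5% of control and 22.6% of Alk1 ECKO cells. Before thinning, 82.8% and 55.6% had a UMI. Mfsd2a was detected in 82.5% and 61.3% of the thinned cells, and Spock2 in 98.3% and 97.8%. Rods, taken as a background, gave 0% of 1238 control cells for Slco1c1, which allows a share of up to 0.242% (3 counts). They gave 0.323% for Mfsd2a, but 12.7% for Spock2. Whether Spock2 in rods is free RNA or their own transcript was not tested, so rods are no blank for it. Rods had a median of 2896 UMIs per cell in control and 2393.5 in Alk1 ECKO before thinning.

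The 3 genes lie on different chromosomes of mm10. Mfsd2a is at chromosome 4, 122946850 to 122961188, Spock2 at chromosome 10, 60106219 to 60135198, and Slco1c1 at chromosome 6, 141524368 to 141570177. Their proximal promoters are printed because Wnt signals act through TCF and LEF factors, whose core motif was searched as CTTTGAA or CTTTGAT on both strands. Of 250 bases before the RefSeq start (GRCm38.p6), Spock2 held 1 match, 133 bases before the start, shown in capitals; the other promoters held none and are in lower case throughout. Spock2 is shown without the last bases, which lie in an annotated exon of that gene.
Spock2, chr10:60106007-60106206, plus strand: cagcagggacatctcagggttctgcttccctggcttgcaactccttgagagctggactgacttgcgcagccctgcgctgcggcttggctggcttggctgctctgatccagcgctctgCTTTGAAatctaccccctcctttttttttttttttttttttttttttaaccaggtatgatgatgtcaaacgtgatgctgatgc
Mfsd2a, chr4:122961189-122961438, minus strand: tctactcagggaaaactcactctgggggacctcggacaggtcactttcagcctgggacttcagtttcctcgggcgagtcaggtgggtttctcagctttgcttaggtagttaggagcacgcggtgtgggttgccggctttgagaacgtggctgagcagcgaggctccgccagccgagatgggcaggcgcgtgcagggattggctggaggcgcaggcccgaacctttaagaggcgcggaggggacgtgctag
Slco1c1, chr6:141524104-141524353, plus strand: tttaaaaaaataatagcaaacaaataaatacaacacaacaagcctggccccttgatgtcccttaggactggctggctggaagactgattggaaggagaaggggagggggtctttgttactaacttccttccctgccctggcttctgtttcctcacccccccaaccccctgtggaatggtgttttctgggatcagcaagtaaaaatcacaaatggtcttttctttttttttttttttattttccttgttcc
The motif was in 7.48% of 32851 RefSeq promoters of the same length, in 7 of 43 promoters of 30 genes of the barrier transport list and in 2 of 26 promoters of 18 genes of the Wnt list. A match is only a match of letters, and nothing about binding was measured.

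Relative to the other non-cycling, non-tip endothelial cells of their own library, barrier capillary cells held more transcripts of transporters. Of the barrier transport list (transporters and other genes of barrier endothelium), leaving out the selecting genes, 27 of 33 measured genes were higher and 0 lower in control by at least 1.5-fold with the interval on one side of 1, with a median log2 ratio of 0.88, where 7.51% of 9591 genes were higher. In Alk1 ECKO 20 of 35 were higher and 3 lower, median 0.67, where 6.49% of 10881 genes were higher. This comparison is within cells chosen by genes of the same kind and so describes the class. Arterial genes were higher for 10 of 24 and lower for 6 in control, where 9.53% of all genes were lower. In Alk1 ECKO 8 of 26 were higher and 1 lower, where 7.64% were lower. Whether the class holds arterial cells beside capillary cells was not tested. In Alk1 ECKO the cells below the threshold held 363 CPM of microglial and 839 CPM of erythroid transcripts, against 52.2 and 70.5 CPM in control, while in control they held 656 CPM of rod transcripts against 53.9 CPM in Alk1 ECKO. The part of these in the comparison was not tested.

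A set of 40 genes was higher in barrier capillary than in other endothelial cells by over 1.5-fold in both libraries, interval included. The 12 with the highest ratio in the library where it was smaller included several carriers. Slc7a8, a light chain for large neutral amino acids, was at 63.0 against 15.0 CPM in control (log2 2.07) and 45.6 against 12.6 CPM in Alk1 ECKO (1.86). It was higher in the barrier class of either library.

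Slc22a8, an organic anion carrier, was at 35.1 against 7.22 CPM in control and 30.04 against 8.73 CPM in Alk1 ECKO. The taurine carrier Slc6a6 was at 500 against 193 CPM in control and 432 against 173 CPM in Alk1 ECKO. Flvcr2, a choline carrier, had nearly the same level in barrier capillary cells of both libraries (34.8 and 34.4 CPM, log2 -0.02, -0.41 to 0.37). Slc16a1, the lactate and ketone carrier MCT1, was at 29.7 against 11.1 CPM in control and at 53.2 against 8.73 CPM in Alk1 ECKO. Others were Grb14, an adaptor of the insulin receptor, the pro-apoptotic Bmf, the intermediate filament gene Synm, the water channel Aqp1 and Lrp8. Aqp1 rested on few cells: 19 control and 32 Alk1 ECKO cells had a UMI, and 5 cells held 69.6% and 61.4% of them.

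**Figure D3:**
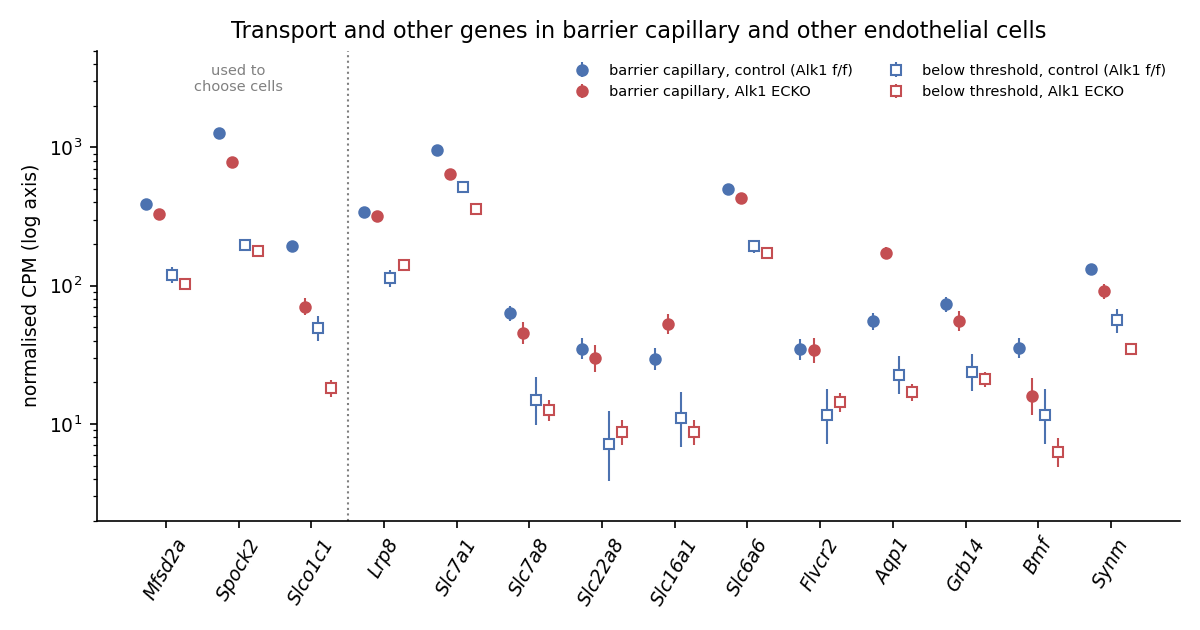
Normalised CPM (log axis) of the 3 selecting genes, Slc7a1 and 10 of the leading genes in barrier capillary cells (filled) and endothelial cells below the barrier threshold (open), control in blue and Alk1 ECKO in red, with exact Poisson 95% intervals. Each gene was higher in barrier capillary cells of either library; Aqp1 and Slc16a1 were higher in Alk1 ECKO than in control barrier capillary cells.

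The 74 genes lower in barrier capillary cells in both libraries were led by S100a6, a calcium-binding protein, at 22.4 against 187 CPM in control and 17.0 against 132 CPM in Alk1 ECKO. Pclaf, Birc5 and Spc24, which act in DNA replication and mitosis, were lower as well, as were Lgals1, Fabp5, Cd63 and Mgarp. In control Müller glia or progenitors, Mgarp was at 641 CPM, Fabp5 at 508 CPM, Cd63 at 268 CPM and Lgals1 at 12.2 CPM. Mgarp, Fabp5 and Cd63 were thus far higher there than in either endothelial class. Genes high in rods or Müller glia were not left out of this set. The part of free RNA in it was not tested. Birc5 was at 9.81 against 57.8 CPM in control. Of the G1/S genes, 17 of 23 were lower and 0 higher in control, where 9.53% of all genes were lower, and 22 of 29 lower and 0 higher in Alk1 ECKO, where 7.64% were. The limit on Mki67 and Top2a was the same for both classes, but within it Mki67 was lower in barrier capillary cells (15.2 against 28.9 CPM in control).

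Between the genotypes, 516 of 9698 genes measured with at least 30 UMIs (5.32%) were higher and 586 (6.04%) lower in Alk1 ECKO barrier capillary cells, by at least 1.5-fold with the interval on one side of 1. With plain CPM and no size factor the split was 372 higher and 819 lower. With a mean of per-cell CPM, which weights shallow cells like deep ones, it was 1478 higher and 1032 lower, so which direction held more genes depended on the scaling. The median log2 ratio of all measured genes was 0.02, and -0.06 with plain CPM. Of the genes called lower here, 256 were also lower in Alk1 ECKO cells below the barrier threshold, and 224 genes were higher in both classes; in that class 8.77% of 10931 genes were higher and 10.2% lower. Direction was opposite for 8 and 13 genes.

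Acvrl1, the deleted gene, was at 137 CPM in control (530 UMIs) and 174 CPM in Alk1 ECKO barrier capillary cells (480 UMIs), log2 0.35 (0.16 to 0.53). Tags at the 3' end need not fall in the deleted part of the gene, which the sources used here do not give, so this level checks nothing about the deletion. Piezo1, the mechanosensitive channel named in the study's title, was at 63.5 and 66.6 CPM, log2 0.07 (-0.21 to 0.35), with a UMI in 24.2% of thinned control and 22.6% of thinned Alk1 ECKO cells. No difference in Piezo1 was detectable in these cells at this depth. Piezo2 was at 86.5 and 61.9 CPM (log2 -0.48, -0.76 to -0.21), short of 1.5-fold. Of 14 measured mechanosensitive channel genes, 1 was higher (Lrrc8a, a volume-regulated anion channel subunit, log2 0.65) and 2 were lower (Pkd2, -0.76, and Trpm7, -0.63). Over all genes 5.32% were higher and 6.04% lower, so the 1 higher gene is near that share.

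Transporter genes of the barrier did not move as 1 block. Leaving out the selecting genes, 7 of 34 measured members of the list were higher and 2 lower in Alk1 ECKO, with a median log2 ratio of -0.09. Over all genes 5.32% were higher and 6.04% lower, so the 2 lower genes are near that share. Slc2a1, the glucose carrier GLUT1, was at 755 CPM in control (2927 UMIs) and 1237 CPM in Alk1 ECKO (3418 UMIs), log2 0.71 (0.64 to 0.78). The ratio was 0.64 in endothelial cells below the threshold, and it was 1.048 in rods and 1.43 in Müller glia or progenitors.

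Slco1a4, an organic anion carrier of brain endothelium, was at 62.7 and 106 CPM (log2 0.76, 0.51 to 1.01), and Slc16a1 at 29.7 and 53.2 CPM (0.84, 0.48 to 1.21). Apod, a lipid-binding secreted protein, was at 128 and 277 CPM (1.12, 0.95 to 1.28). Rgcc (0.65), Slc38a3 (0.62) and Car4 (0.94, 19 and 26 UMIs) were the others that were higher. Apod was far more different below the threshold (3.10), and there it was at 31.7 and 272 CPM. Without the 10 deepest members of each library the Slc16a1 ratio was 0.32 and no longer passed. The Slco1a4 ratio was 0.37 with a barrier threshold of 600 CPM and 0.44 without members rich in immediate early transcripts, neither of which passed.

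The lower side, whose count was near the share over all genes, held Lepr, the leptin receptor. Lepr was at 25.8 CPM in control (100 UMIs in 57 cells) and 3.98 CPM in Alk1 ECKO (11 UMIs in 8 cells), log2 -2.70 (-3.74 to -1.80). Abcc4, an efflux pump of organic anions, was at 39.7 and 19.2 CPM (-1.05, -1.53 to -0.59). Slc7a1, at 952 and 643 CPM, had a log2 ratio of -0.57 (-0.65 to -0.48), just short of 1.5-fold. The efflux pump Abcb1a (P-glycoprotein) was at 226 and 172 CPM (-0.40, -0.56 to -0.23), Tfrc, the transferrin receptor, at 237 and 195 CPM (-0.28), and Slc3a2, the heavy chain of amino acid carriers, at 1040 and 1075 CPM (0.05). None of the 16 measured junction genes outside the selection passed in either direction; their median was -0.08. The caveolae, fenestrae and transcytosis list had 4 of 16 higher and 0 lower, among them Cav2 at 46.7 and 83.3 CPM (0.83) and Ehd4 at 96.8 and 191 CPM (0.98). For both lists the shares over all genes were 5.32% higher and 6.04% lower. Plvap, the diaphragm protein of fenestrae, was at 147 and 123 CPM (-0.26, -0.45 to -0.06).

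Of 30 genes of the Wnt and norrin response, 3 were higher and 2 lower, median 0.08. Both counts are near the shares over all genes, 5.32% higher and 6.04% lower. Axin2, a feedback target, was at 34.8 and 39.8 CPM (log2 0.19, -0.18 to 0.57), Apcdd1 at 388 and 339 CPM (-0.20), and Lef1, a transcription factor of the pathway, at 339 and 282 CPM (-0.27). The receptor Fzd4 was at 61.4 and 72.4 CPM (0.24) and its partner Tspan12 at 87.5 and 77.1 CPM (-0.18). None of these 5 passed. The 3 that were higher were the inhibitors Nkd1 (42.1 and 72.04 CPM, 0.78) and Nkd2 (10 and 28 UMIs, 1.97) and the target Sp5 (0.64), and the 2 lower were Reck (-1.01) and Ppard (-0.60). Nkd1, Sp5, Reck and Ppard each lost the call in 4 or more of the alternatives.

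Because the Alk1 ECKO cells lay lower in the summed selecting genes, levels were also compared within bands of that sum, as plain CPM. Slc7a1 was at 887 CPM in control against 621 CPM in Alk1 ECKO between 800 and 1200 CPM, at 841 and 710 CPM between 1200 and 1600, and at 1141 and 743 CPM from 1600. Slco1c1 was lower in Alk1 ECKO in each band (121 and 55.1, 150 and 81.0, 258 and 128 CPM). With the same makeup of bands in both libraries the log2 ratio was -0.39 for Slc7a1, -0.92 for Slco1c1, 0.08 for Mfsd2a and -0.12 for Spock2.

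Slc2a1 was higher in Alk1 ECKO in each band, with 788 and 1217, 827 and 1037, and 829 and 1847 CPM. Apod did not keep 1 direction. It was higher in Alk1 ECKO between 800 and 1200 (60.4 and 307 CPM) and between 1200 and 1600 (201 and 347 CPM). From 1600 it was lower (147 and 102 CPM). The barrier transport list had a median of 0.10 with the same makeup, on the other side of 0 from the value over all members. These genes and bands were chosen after their values were seen.

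**Figure D4:**
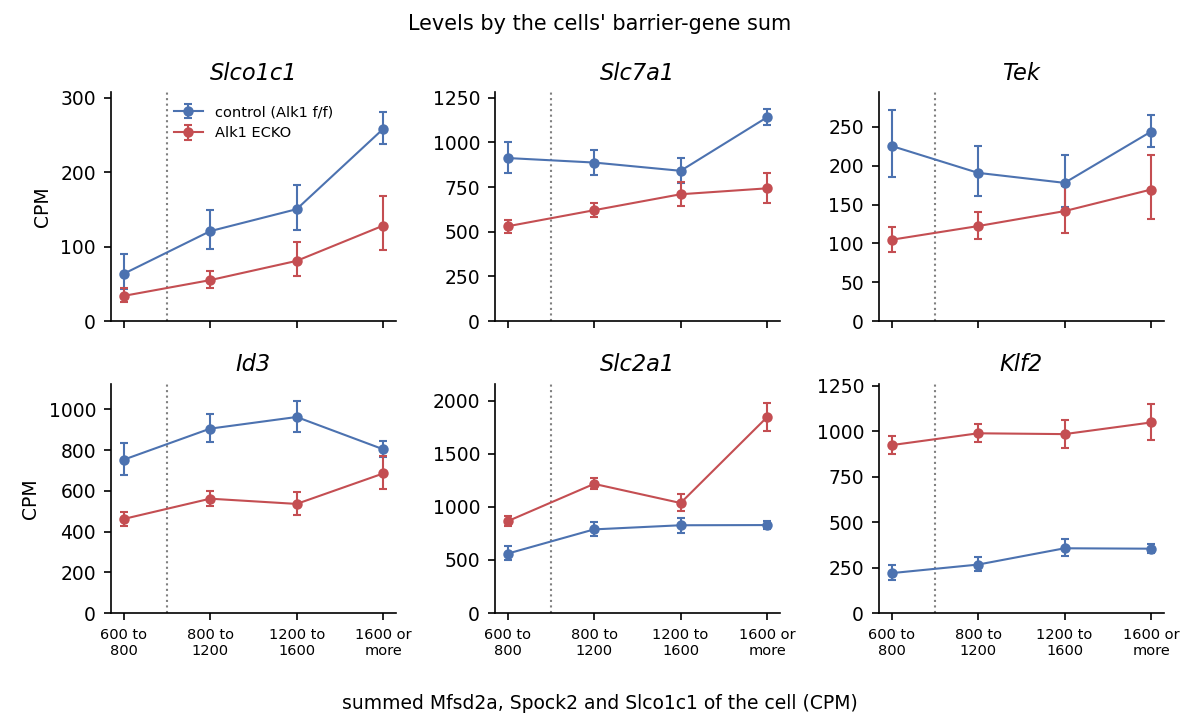
CPM of 6 genes in cells grouped by their summed Mfsd2a, Spock2 and Slco1c1 (CPM), control in blue and Alk1 ECKO in red, with exact Poisson 95% intervals; the dotted line is the selection threshold of 800 CPM. Klf2 and Slc2a1 lay higher and Slco1c1, Slc7a1, Tek and Id3 lower in Alk1 ECKO in every band. Slco1c1 is part of the sum that set the groups.

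Of 19 measured targets of ALK1 and SMAD signalling, 4 were higher and 1 lower in Alk1 ECKO barrier capillary cells, median 0.25, beside 5.32% higher and 6.04% lower over all genes. The 1 lower gene is near that share. Smad6, an inhibitory SMAD, was at 10.1 CPM (39 UMIs) and 38.4 CPM (106 UMIs), log2 1.93 (1.39 to 2.499). Tmem100, a membrane protein induced by ALK1, was at 17.0 and 40.5 CPM (1.25, 0.80 to 1.71). Id1, an inhibitor of helix-loop-helix factors, was at 291 and 455 CPM (0.64, 0.53 to 0.76), whereas Id3 was at 786 and 559 CPM (-0.49, -0.58 to -0.40). Hey1, a Notch and BMP target, was higher (0.64) and Stab1, a scavenger receptor, lower (-0.67).

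Id3 was detected in 96.7% of thinned control and 77.4% of thinned Alk1 ECKO barrier capillary cells. Below the barrier threshold, 6 of 20 measured ALK1 and SMAD targets were higher and 3 lower in Alk1 ECKO, median -0.08. There 8.77% of all genes were higher and 10.2% lower. In that class Id1 (-0.33), Id2 (-0.54), Id3 (-0.91) and Tmem100 (-0.46) had negative log2 ratios. Whether the classes differ in this was not tested. In Müller glia or progenitors, outside the endothelium, Id1 (2.14) and Id3 (1.58) were higher in the Alk1 ECKO library. Leaving out the members with 5000 CPM or more of immediate early transcripts brought Smad6 to 1.03, Tmem100 to 0.40 and Id1 to 0.39, and the latter 2 no longer passed. Among BMP and TGF-beta receptors and their SMADs, 1 of 17 was higher (Smad1, 130 and 234 CPM, 0.85) and 0 lower. That is near the shares over all genes, 5.32% higher and 6.04% lower.

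Flow-responsive genes included a pair of KLF factors that were higher in Alk1 ECKO. Klf2, which shear stress induces, was at 310 CPM in control (1200 UMIs in 108 cells) and 970 CPM in Alk1 ECKO (2680 UMIs in 110 cells), log2 1.65 (1.55 to 1.75). Klf4 was at 114 and 292 CPM (1.35, 1.18 to 1.52). After thinning, Klf2 was detected in 67.5% of control and 87.1% of Alk1 ECKO barrier capillary cells, against 1.21% and 7.87% of rods, where its log2 ratio was 3.32. Without the members rich in immediate early transcripts, the ratios were 1.12 for Klf2 and 0.72 for Klf4.

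Nos3, the endothelial nitric oxide synthase and a KLF2 target, was at 80.5 and 101 CPM (0.33, 0.09 to 0.57), and the KLF2 target Thbd, thrombomodulin, at 45.7 and 40.9 CPM (-0.16). Neither passed. Tek (TIE2, the receptor of the angiopoietins) was lower, at 204 and 131 CPM (-0.64, -0.82 to -0.46), and was detected in 65.8% and 40.9% of thinned cells. Its ratio was -0.42 with the same makeup of bands and -0.29 as a mean of per-cell CPM, neither of which passed. Of 18 genes of the flow list outside the selection, 4 were higher and 1 lower, beside 5.32% higher and 6.04% lower over all genes. The 1 lower gene is near that share.

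Of 24 arterial genes 6 were higher and 0 lower, median 0.14, and of 19 venous genes 1 was higher and 5 lower, median -0.26, beside 5.32% higher and 6.04% lower over all genes. The arterial genes that passed were Mgp, Eln, Fbln2, Cxcr4, Igfbp3 and Hey1, of which Mgp, Eln and Fbln2 encode matrix proteins. The lists overlap: Hey1 was also counted among the ALK1 and SMAD targets, and Cxcr4 and Igfbp3 among the tip cell genes. A setting left out the 20 members with 300 CPM or more of MHC class II transcripts. There the ratio of Fbln2 was 0.52 in place of 1.55 and that of Eln 0.74 in place of 1.79, neither of which passed. That of Mgp was 1.70 in place of 4.41. Other arterial genes did not pass: Gja4 at 302 and 404 CPM (0.42), Sox17 at 218 and 232 CPM (0.09), Bmx at 21.7 and 23.5 CPM (0.12) and Efnb2 at 156 and 119 CPM (-0.39). On the venous side, Nr2f2, the COUP-TFII factor of venous identity, was at 58.1 and 36.6 CPM (-0.67, -1.02 to -0.32), and Il1r1, Flrt2 and Flt4 were among the others that were lower. Tmem252 was higher (166 and 259 CPM, 0.64).

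Tip cell genes that did not set the tip limit were higher in 6 of 21 cases and lower in 0, median 0.15. Over all genes 5.32% were higher and 6.04% lower. Cxcr4 and Igfbp3, counted above as arterial, were among the 6. Apln, the ligand of the apelin receptor, was at 29.4 CPM in control (114 UMIs in 39 cells) and 115 CPM in Alk1 ECKO (318 UMIs in 60 cells), log2 1.97 (1.66 to 2.29). Adm, adrenomedullin, was at 16.5 and 38.01 CPM (1.20) and Chst1, a sulfotransferase, at 16.3 and 39.5 CPM (1.28). Esm1, one of the 3 genes of the tip limit, was at 6.19 and 30.04 CPM within that limit.

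**Figure D5:**
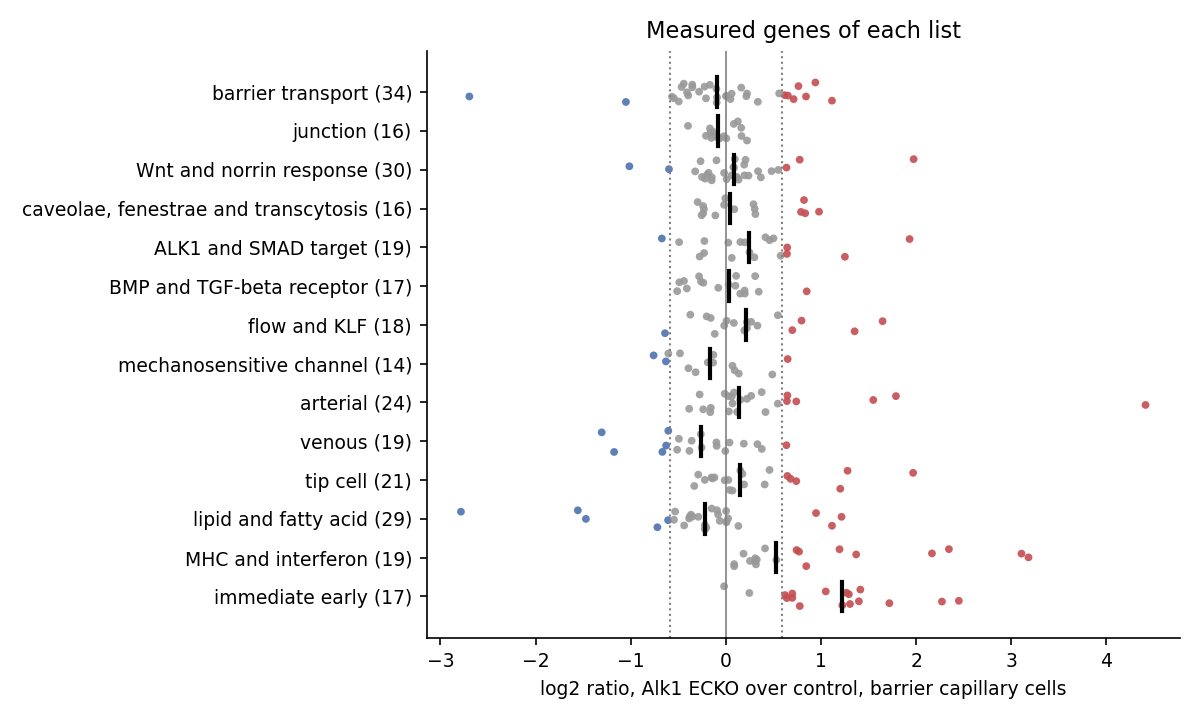
Log2 ratio of Alk1 ECKO over control in barrier capillary cells for the measured genes of 14 lists, without the selecting genes (number of genes in brackets). Red and blue points passed the call for higher and lower, black bars are list medians and dotted lines mark 1.5-fold. Immediate early genes lay highest (median 1.22) and venous genes lowest (-0.26).

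Immediate early genes, which respond within minutes to growth factors, stress and tissue dissociation, were higher in 15 of 17 measured cases and lower in 0, median 1.22. Over all genes in barrier capillary cells, 5.32% were higher and 6.04% lower. Fos was at 159 CPM in control (616 UMIs) and 767 CPM in Alk1 ECKO (2120 UMIs), log2 2.27 (2.14 to 2.40). Fosb was at 26.3 and 144 CPM (2.45, 2.13 to 2.78), and Jun at 386 and 1027 CPM (1.41). The same list was higher for 15 of 17 genes in Müller glia or progenitors, where 13.3% of all measured genes were, and for 7 of 17 in rods, where 7.5% were. Members with 5000 CPM or more of these transcripts numbered 17 in control and 62 in Alk1 ECKO.

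MHC and interferon genes were higher in 9 of 19 cases and lower in 0, median 0.53, beside 5.32% higher and 6.04% lower over all genes. Iigp1, an interferon-induced GTPase, was at 3.87 CPM in control (15 UMIs in 10 cells) and 35.1 CPM in Alk1 ECKO (97 UMIs in 19 cells), log2 3.18 (2.39 to 4.07). Igtp was at 7.48 and 38.01 CPM (2.34, 1.74 to 2.99) and Ifi47 at 6.19 and 25.3 CPM (2.03, 1.35 to 2.77); both encode GTPases of the same family, whose similar sequences can split UMIs between them. The signal was held by few cells, with 70.1% of Iigp1 UMIs of Alk1 ECKO in 5 cells. MHC class II transcripts (Cd74, H2-Aa, H2-Ab1 and H2-Eb1) reached 300 CPM in 20 Alk1 ECKO members and in 0 of 128 control members. In a shallow cell very few UMIs reach this limit, and more Alk1 ECKO members were shallow. Cd74 had 7 UMIs in 4 control cells and 43 UMIs in 19 Alk1 ECKO cells. The part of depth in this contrast was not tested. Without those 20 cells the log2 ratio was 0.92 for Iigp1 and 0.81 for Ifi47, neither of which passed, and 0.94 for Igtp.

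The promoters of Igtp and Ifi47 are shown because these related genes were both higher in Alk1 ECKO and differ in the motif. The interferon-stimulated response element was searched as GAAA, any pair of bases and again GAAA, on both strands; Igtp held 1 match, 34 bases before the RefSeq start, in capitals, and Ifi47 none.
Igtp, chr11:58199306-58199555, plus strand: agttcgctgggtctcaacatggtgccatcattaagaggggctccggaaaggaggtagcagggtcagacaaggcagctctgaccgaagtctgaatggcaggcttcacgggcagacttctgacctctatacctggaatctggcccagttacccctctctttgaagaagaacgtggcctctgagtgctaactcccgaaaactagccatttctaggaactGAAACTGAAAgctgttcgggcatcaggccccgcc
Ifi47, chr11:49076337-49076586, plus strand: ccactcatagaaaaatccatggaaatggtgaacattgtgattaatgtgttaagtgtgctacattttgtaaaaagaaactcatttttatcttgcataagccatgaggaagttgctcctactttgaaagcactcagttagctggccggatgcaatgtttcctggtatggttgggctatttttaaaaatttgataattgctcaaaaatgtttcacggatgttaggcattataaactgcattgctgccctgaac
This motif was in 2.98% of 32851 promoters and in 10 of 22 promoters of 19 genes of the MHC and interferon list. In all 6 motifs were searched for 23 genes, 19 of which had an entry, with 22 promoters, and the promoters and motifs printed were chosen after the matches had been seen. The motif of TCF and LEF was also in Igtp, Ifi47, Irgm1 and Slc7a1. The other motifs were TGACGT (CRE, in 1 of the 19 genes), TTCNNNGAA (STAT, 2 genes), GGCGCC (KLF, 4 genes) and the CArG box (0 genes), found in 6.47%, 7.02%, 9.59% and 1.47% of all promoters.

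Among the genes furthest from even, 114 genes lay wholly beyond 1.5-fold with enough UMIs, 91 higher and 23 lower, after 10 were left out that were far higher in rods or Müller glia. Mgp, a calcification inhibitor of arteries, had the highest ratio, at 3.10 CPM (12 UMIs in 6 cells) and 65.9 CPM (182 UMIs in 28 cells), log2 4.41 (3.57 to 5.39). It went from 0.177 to 34.7 CPM in rods and from 0 to 72.6 CPM in Müller glia or progenitors, and was 1.70 in barrier capillary cells without the 20 MHC class II members. Phlda3, a p53 target that restrains AKT, was at 2.06 and 21.0 CPM (3.35, 2.27 to 4.62), and Cdkn1a, the CDK inhibitor p21, at 81.3 and 184 CPM (1.18). Of 17 CDK inhibitor and p53 genes 6 were higher and 0 lower, median 0.30, beside 5.32% higher and 6.04% lower over all genes. The other 11 genes of that list did not pass. Before scaling, Mdm2 had 125 control and 72 Alk1 ECKO UMIs, Sesn1 230 and 125, Trp53inp1 71 and 38, and Ccng1 54 and 36. Bax had 565 and 579. Control members held more UMIs in all (3567876 against 2689529), so these raw counts do not compare levels. A p53 response was not tested. Phlda3 was also higher below the barrier threshold (1.99).

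Rasgrp2, an exchange factor for RAP1, was at 23.7 CPM (92 UMIs) and 109 CPM (300 UMIs), log2 2.19 (1.85 to 2.55). It was detected in 8.33% of thinned control and 46.2% of thinned Alk1 ECKO barrier capillary cells, and in 0.162% and 2.25% of rods. Prss23, a serine protease, was at 15.5 and 84.3 CPM (2.45), Rarres1 at 8.77 and 44.9 CPM (2.35) and Fam13a at 25.6 and 118 CPM (2.20). Prss23 was also higher in Müller glia or progenitors (1.68), where Rarres1 and Fam13a had too few UMIs to be measured. The ratio of Fam13a was 0.96 below the barrier threshold. In tip cells Fam13a had 0 control UMIs (11 cells) and 101 Alk1 ECKO UMIs (258 cells), so its ratio there is not known. Hddc3 was higher too (2.96), as it was in rods (2.07) and Müller glia or progenitors (2.45).

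Nxpe4 had the lowest ratio, at 58.3 CPM (226 UMIs in 67 cells) and 4.34 CPM (12 UMIs in 9 cells), log2 -3.75 (-4.72 to -2.91). It was detected in 21.7% of thinned control and 3.23% of thinned Alk1 ECKO barrier capillary cells. Bmf was at 35.6 and 15.9 CPM (-1.16) and belonged to the genes highest in barrier capillary cells.

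Antxr2, a receptor for collagen fragments and anthrax toxin, was at 34.3 and 14.5 CPM (-1.25), Mlec, a lectin of the endoplasmic reticulum, at 26.6 and 10.9 CPM (-1.29), and Unc13b, a vesicle priming factor, at 56.3 and 26.1 CPM (-1.11). Nexmif (-1.63), Zfp518a (-1.32) and Dcun1d3 (-1.18) were lower as well. Antxr2 (-1.67) and Unc13b (-0.92) were also lower in Müller glia or progenitors, and Zfp518a (-0.84) and Unc13b (-0.62) in rods. Mlec had a positive ratio in rods (0.44), short of 1.5-fold. Lars2, the mitochondrial leucyl-tRNA synthetase, was lower by a like amount in barrier capillary cells (-1.44), rods (-1.48) and Müller glia or progenitors (-1.46). Eif3j2 (-2.75) has a near-identical copy, Eif3j1, so the split of its UMIs is uncertain. Eif3j2 was also lower in rods (-1.47) and Müller glia or progenitors (-1.19).

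The lipid list, which holds synthesis, uptake and carrier genes, had 5 of 30 genes lower and 3 higher, median -0.22. Over all genes 6.04% were lower and 5.32% higher. Fasn, the fatty acid synthase, was at 7.48 CPM (29 UMIs) and 1.09 CPM (3 UMIs), log2 -2.78 (-5.14 to -1.10). Fads2, a fatty acid desaturase, was at 33 and 8 UMIs (-1.56) and Acaca, acetyl-CoA carboxylase, at 35 and 9 UMIs (-1.47). The genes that were higher were Gpihbp1, the capillary anchor of lipoprotein lipase (15.7 and 36.6 CPM, 1.22), Apod and Mgll. Basement membrane genes were near even, with 1 of 26 higher and 2 lower, the latter Col15a1 (253 and 144 CPM, -0.81) and the selecting gene Spock2. Both counts are near the shares over all genes.

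Rod transcripts were lower in Alk1 ECKO barrier capillary cells for all 11 measured rod genes, beside 6.04% lower over all genes. Hes5, a Notch target that Müller glia and progenitors also express, was at 24.5 and 2.17 CPM (-3.50), with 68.4% of its control UMIs in 1 cell and a ratio of -1.83 without the 10 deepest members. The Notch target Nrarp was higher (117 and 198 CPM, 0.77). The library held 3984 rods in control and 478 in Alk1 ECKO; the part of free RNA in these levels was not tested. The chemokine Ccl2 had 45 control UMIs against 1, all 45 of them in 1 cell. The stress-induced chaperones Hspa1a (77 and 8 UMIs) and Hspa1b (42 and 2 UMIs) were lower too. The heat shock list as a whole had 1 of 13 higher and 3 lower, beside 5.32% higher and 6.04% lower over all genes. The 1 higher gene is near that share.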

How the data were processed

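Retinal cells from 1 control and 1 Alk1 ECKO library were analysed from the UMI count matrices that the authors deposited, which are unnormalised. The matrices were made with Cell Ranger 5.0.1, per the file headers, whereas FastQC 0.11.9, the mm10 build and Cell Ranger 6.1.1 are listed per the submitters' processing notes. The sources used here do not state intron counting, the barcode filter or pooling of animals. Barcodes were kept with at least 1000 UMIs, 500 genes and 1 to 10% mitochondrial UMIs, which left 7583 control and 2764 Alk1 ECKO barcodes. A low mitochondrial share was also a ground for removal, and this removed many more Alk1 ECKO barcodes. Doublets were not removed in the main analysis; the automatic threshold of Scrublet (scanpy 1.11.5) marked 0 and 3 barcodes and so did not work, and removal by expected rate is an alternative.

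UMIs were summed per class and library and divided by the total and by a median-of-ratios size factor over 4 endothelial classes of both libraries. Log2 ratios of Alk1 ECKO over control carry an exact conditional binomial 95% interval. A gene was measured with at least 30 UMIs over both libraries and called at 1.5-fold with the interval on one side of 1. With no replicates, there are no p-values. Ratios in rods and Müller glia or progenitors were centred on the median of that class. On simulated counts for 9698 genes without replicate variation, the interval covered the true ratio for 95.5% of 9498 unchanged genes and 1.46% of them were called, so the rule covers counting error only. The scripts used Python 3.11.15, numpy 2.4.6, scipy 1.17.1 and pandas 2.3.3.

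The 33 gene lists (739 entries) and the members were chosen with earlier results of these data known. Named genes were the selecting and marker genes, Acvrl1, Piezo1, Piezo2 and Cdh5, the 12 highest and 12 lowest genotype ratios, and the 12 highest and 8 lowest ratios against endothelial cells below the threshold. Eligible genes had at least 20 CPM, 50 UMIs and an interval beyond 1.5-fold. In each list the 3 highest and 3 lowest could be named; other list members that are named, and the genes shown by share of cells or by band, were chosen after their values were seen. Promoter sequences are from RefSeq (GRCm38.p6), gene positions from the mm10 annotation. Some genes that these rules would name are not reported here.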

Additional observations from a re-analysis of the deposited data

Results flagged for a closer look

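A group of 5 list genes was called in opposite directions in barrier capillary cells and in endothelial cells below the barrier threshold; with 1 library per genotype the differences between the classes were not tested. The organic anion carrier Slco1a4 had a log2 ratio of Alk1 ECKO over control of 0.76 in barrier capillary cells and -1.63 below the threshold. The Wnt inhibitor Nkd1 had 0.78 and -0.92. The matrix gene Fbln2 had 1.55 and -0.70, and its ratio was 0.52, no longer called, without the 20 MHC class II members. In barrier capillary cells 46 control Fbln2 UMIs lay in 10 cells, with 73.9% of them in 5 cells. The mitotic motor genes Kif20b and Cenpe had -1.51 and -1.13 in barrier capillary cells but 1.06 and 0.79 below the threshold. Their counts in barrier capillary cells were low, with 32 control and 8 Alk1 ECKO UMIs for Kif20b and 40 and 13 for Cenpe. Of the control Cenpe UMIs, 70% lay in 5 cells. As a mean of per-cell CPM the Cenpe ratio in barrier capillary cells was 0.41 and not called, so its direction was then no longer opposite. Nkd1 lost its call in 4 alternatives and Slco1a4 in 2.

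Barcodes under 1% mitochondrial UMIs were outside the comparisons. Of these, 40 in the Alk1 ECKO library and 1 in the control library passed every other threshold of the barrier capillary class. The 40 held 62202 UMIs, a median of 1214.5 per barcode and a median mitochondrial share of 0.398%, with 1045 CPM of the selecting genes and 1977 CPM of erythroid transcripts. There were 1257 endothelial barcodes of this kind in Alk1 ECKO and 5 in control. Their part in the lower barrier capillary share was not tested beyond the value with them included.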

How the results depend on the processing

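With 1 library per genotype, counting intervals say nothing of variation between animals, and no leave-one-out value exists. No paired analysis was possible because each genotype has 1 library. The barrier capillary share was lower in Alk1 ECKO under every setting run. The control share was 33.3% with a mitochondrial share of at most 5%. The Alk1 ECKO share was 6.66% with barcodes below 1% mitochondrial UMIs included and 5.42% without members rich in immediate early transcripts. At thresholds of 600 and 1200 CPM the shares were 45.3% and 31.1% in control and 15.4% and 4.56% in Alk1 ECKO, and without members rich in other cell types' transcripts 27.8% and 8.23%. With a mean of per-cell CPM, 1478 genes were higher and 1032 lower, the barrier transport median was 0.11, and Reck (0.75), Cenpe (0.41) and Sele (0.999) reversed. With at least 100 UMIs per gene, 343 genes were lower. With the same makeup of barrier-gene level the barrier transport median was 0.10. Mcm4 reversed at a threshold of 1200 CPM (-0.12), and Sp5 (-0.24) and Ccn1 (-0.21) without members rich in immediate early transcripts. For these the cause was not tested. The settings on band makeup, MHC class II, deepest members and immediate early transcripts were chosen after seeing the data.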
